A study of Homo sapiens with 60 samples.

Results

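The 10 genes described here are 4 factors that act at the end of the Hippo pathway (YAP1, WWTR1, TEAD1 and TEAD4) and 6 genes that these factors are known to switch on (CCN1, CCN2, ANKRD1, AMOTL2, AJUBA and LATS2). They were picked by name out of 58395 gene identifiers in the count table, after CCN1 and CCN2 had been seen to fall with the compound OL9-119 in the whole data set, so the choice rested on measured values. OL9-119 minus DMSO is the comparison the choice names, and its values, those by clone included, are given below as a description with no test. In GENCODE 29 coordinates on GRCh38, CCN1 lies at chr1:85580761-85583962 on the plus strand, CCN2 at chr6:131948176-131951373 and AMOTL2 at chr3:134355874-134375479 on the minus strand, and the counts are sums over whole genes. ANKRD1 lies at chr10:90912096-90921276 on the minus strand, and the factor genes TEAD1 and YAP1 lie at chr11:12674591-12944483 and chr11:102110461-102233423 on the plus strand. All 10 were among the 18985 genes that passed the low-count filter and were tested.

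YAP1 and TAZ, the protein made from WWTR1, are co-activators that bind no DNA themselves and reach their targets through the TEAD proteins, which recognise a short DNA motif. When the Hippo kinases are active, LATS1 and LATS2 phosphorylate YAP1 and TAZ, which are then kept in the cytoplasm or degraded. In embryonic kidney cells of this lineage the pathway is widely studied as a sensor of cell density, serum factors and actin tension. The counts below measure mRNA, and neither the protein level nor the location of YAP1 was measured.

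The cells were HEK293A, a human embryonic kidney line, and each group carried a TDP1 knockout made with CRISPR/Cas9. TDP1 is the enzyme that removes topoisomerase 1 stalled on DNA, topotecan is the drug that traps topoisomerase 1 there, and OL9-119 is a TDP1 inhibitor known by its code. Each of 3 knockout clones, C6, F7 and G6, received topotecan with OL9-119 (100 nM and 5 µM, called the combination below), topotecan alone (100 nM in 0.1% DMSO), OL9-119 alone (5 µM in 0.1% DMSO), DMSO alone (0.1%) or no treatment. Treatment lasted 5 to 5.5 h, and the label of the combination names no DMSO, so that an effect of DMSO and one of OL9-119 cannot be told apart between the combination and topotecan. There were 4 replicates labelled biological in each of the 15 groups, thus 12 libraries per treatment and 60 in all. A clone descends from a single cell, so differences between C6, F7 and G6 are differences between those 3 clones. Wild-type libraries were not used here, and an effect of the knockout itself was not measured.

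The libraries held 4.62 to 20.9 M counts each (median 11.4 M). Levels are given as CPM, counts scaled to an effective library size of 1 M. TDP1 mRNA lay between 17.8 and 42.3 CPM over the 60 libraries, and a gene-level mRNA count does not show whether the coding sequence is broken. Of the markers of the HEK293 lineage, VIM had 233 to 727 CPM and NEFL 188 to 299 CPM, while the blood gene PTPRC was at 0 in 53 libraries and the liver gene TTR in 50. In 14 libraries, 10 of C6 and 4 of G6, fewer genes were detected at a common depth of 4.5 M counts than elsewhere (17454 to 19345 genes, against 20160 to 23640 in the other 46). These low-detection libraries fell on all 5 treatments, 4 combination, 2 topotecan, 3 OL9-119, 3 DMSO and 2 untreated, and results that rest on them are given with and without them.

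The windows before the transcription start were searched for the motif that TEAD proteins bind, and 3 are printed. CCN2 passed the test in all 3 drug comparisons tested below, ANKRD1 lay on the other side of 0 from it with OL9-119 alone, and AMOTL2 fell with it in the combination while its window lacks the motif. Each is the 250 bases upstream of the RefSeq start in GRCh38.p14, read 5′ to 3′ on the gene's strand, with the TEAD motif GGAATG in capitals. The motif was searched on both strands, its reverse complement being CATTCC. CCN2 lies on the minus strand (chr6:131951373-131951622), ANKRD1 on the minus strand (chr10:90921088-90921337) and AMOTL2 on the minus strand (chr3:134375418-134375667).
CCN2: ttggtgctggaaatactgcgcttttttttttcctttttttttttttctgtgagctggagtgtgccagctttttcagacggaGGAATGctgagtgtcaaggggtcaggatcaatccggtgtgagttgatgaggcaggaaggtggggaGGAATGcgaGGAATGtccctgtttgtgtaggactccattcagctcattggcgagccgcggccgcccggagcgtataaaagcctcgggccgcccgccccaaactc
ANKRD1: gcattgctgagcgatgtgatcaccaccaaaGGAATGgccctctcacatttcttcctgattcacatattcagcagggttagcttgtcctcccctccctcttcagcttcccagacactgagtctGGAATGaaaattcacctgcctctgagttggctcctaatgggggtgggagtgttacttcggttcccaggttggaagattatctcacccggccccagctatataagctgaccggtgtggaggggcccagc
AMOTL2: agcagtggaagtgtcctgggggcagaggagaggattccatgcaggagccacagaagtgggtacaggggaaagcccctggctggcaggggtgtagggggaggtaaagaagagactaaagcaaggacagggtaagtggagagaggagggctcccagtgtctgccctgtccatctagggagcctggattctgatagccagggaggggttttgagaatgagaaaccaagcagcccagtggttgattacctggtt

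CCN2 held 3 copies of the motif, the first 169 to 164 bases before its start and the last 95 to 90 bases before it, and a TATAAA box 32 to 27 bases before it. ANKRD1 held 2 copies, the first 220 to 215 bases before the start. At 195 to 189 bases it read TGATTCA, 1 match to TGANTCA, a pattern wider than the AP-1 motif since any base was allowed at N. YAP1 held 1 copy of the TEAD motif (162 to 157 bases before the start), which was not found in the windows of AMOTL2, AJUBA, LATS2 and WWTR1. The WWTR1 window belongs to a RefSeq start that lies inside the gene, far from its GENCODE 29 start. The RefSeq starts of ANKRD1, AJUBA, AMOTL2 and CCN2 also lie inside the GENCODE 29 gene, by 189, 91, 62 and 1 bases. Positions before a start thus depend on the start used. Among 35116 RefSeq windows of the same length, 11.9% held the TEAD motif at least once, 0.940% at least 2 times and 0.0826% at least 3 times. The pattern TGANTCA was in 6.57% of them. These matches are a description of letters, not of binding. A window, from 1 RefSeq start per gene, was matched for 7 of the 10 genes, and CCN1, TEAD1 and TEAD4 are named only.

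Without drug, ANKRD1, CCN2 and CCN1 had higher mean levels per kilobase of exon than the factors, and AJUBA and LATS2 had lower ones. Over the 24 libraries given DMSO or left untreated, ANKRD1 averaged 171.7 ± 126.6 CPM per kb, CCN2 72.4 ± 22.2 and CCN1 60.8 ± 19.5 (SD, n = 24). The factors lay lower, with YAP1 at 21.04 ± 2.52, TEAD4 at 15.9 ± 2.3, TEAD1 at 13.7 ± 1.9 and WWTR1 at 9.24 ± 1.71 CPM per kb. AMOTL2 had 11.3 ± 2.5, AJUBA 4.87 ± 0.60 and LATS2 2.47 ± 0.76 CPM per kb. CCN2 (40.4 to 119.7) overlapped CCN1 (33.1 to 98.5), and TEAD4 (12.28 to 20.7) overlapped YAP1 and TEAD1. Every CCN1 library lay above every YAP1 library (17.46 to 25.38), and AJUBA (3.397 to 5.712) lay below WWTR1 (7.24 to 14.11) and just above LATS2 (1.245 to 3.396) with no overlap. ANKRD1 ran from 31.96 CPM per kb, below every CCN2 library, to 432.5 CPM per kb. TEAD2 (10.5 ± 4.5) and TEAD3 (9.70 ± 1.79 CPM per kb), the other TEAD genes, were close to WWTR1 in level.

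CCN1, CCN2 and AMOTL2 were lower when OL9-119 was given with topotecan than with topotecan alone, a comparison that uses neither the DMSO libraries nor those of OL9-119 alone. The genes were chosen with results of the whole data set known, so its p-values for CCN1 and CCN2 are not independent evidence of their direction. CCN1 and CCN2 encode secreted matricellular proteins that bind integrins and growth factors, and AMOTL2 encodes an angiomotin that holds YAP1 in the cytoplasm and at junctions. Averaged over the clones, CCN1 was lower in the combination than in topotecan alone by 0.61 ± 0.06 on the log2 scale (value ± SE, a fall of 34.5%), CCN2 by 0.66 ± 0.08 and AMOTL2 by 0.55 ± 0.08. In edgeR's quasi-likelihood test, adjusted over all genes tested by Benjamini-Hochberg, the adjusted p was 7.68e-11 for CCN1, 2.63e-08 for CCN2 and 5.49e-07 for AMOTL2. These 3 of the 10 genes passed the threshold of 0.05, all lower, while 6.78% of all genes tested passed it (632 higher and 655 lower). In RNA of a whole culture, fewer cells of a type and less RNA per cell cannot be told apart.

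CCN1 in clone C6 had 83.9, 76.8, 88.7 and 85.9 CPM in the combination, against 132, 145, 134 and 111 CPM in topotecan. In clone F7 it had 142, 136, 151 and 128.4 CPM in the combination, against 186, 181, 203 and 201 CPM in topotecan. In clone G6 it had 78.2, 77.0, 79.1 and 87.4 CPM in the combination, against 147, 132, 126.1 and 129 CPM in topotecan. The combination libraries lay below every topotecan library of their own clone in all 3 clones, while the combination in F7 overlapped topotecan in C6.

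CCN2 in clone C6 had 58.0, 74.997, 89.3 and 95.5 CPM in the combination, against 134, 159, 126.98 and 92.6 CPM in topotecan. In clone F7 it had 137, 139.8, 155 and 136 CPM in the combination, against 189.5, 184, 206.5 and 218 CPM in topotecan. In clone G6 it had 56.3, 66.6, 69.5 and 66.0 CPM in the combination, against 126.5, 115, 107 and 102.3 CPM in topotecan. The groups were apart in F7 and G6 and overlapped in C6, where the highest combination library passed the lowest topotecan one.

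AMOTL2 had 47.4, 35.95, 65.3 and 48.4 CPM in the combination in C6, against 71.2, 93.7, 82.5 and 68.6 CPM in topotecan. In F7 it had 75.5, 75.5, 82.8 and 77.5 CPM in the combination, against 93.2, 91.3, 97.1 and 109 CPM in topotecan. In G6 it had 33.2, 44.7, 46.2 and 53.7 CPM in the combination, against 72.6, 65.6, 70.9 and 70.8 CPM in topotecan. CCN1 and AMOTL2 were thus the 2 of the 10 genes whose combination libraries lay below all topotecan libraries in each of the 3 clones, which 0.406% of the genes tested did.

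**Figure D1:**
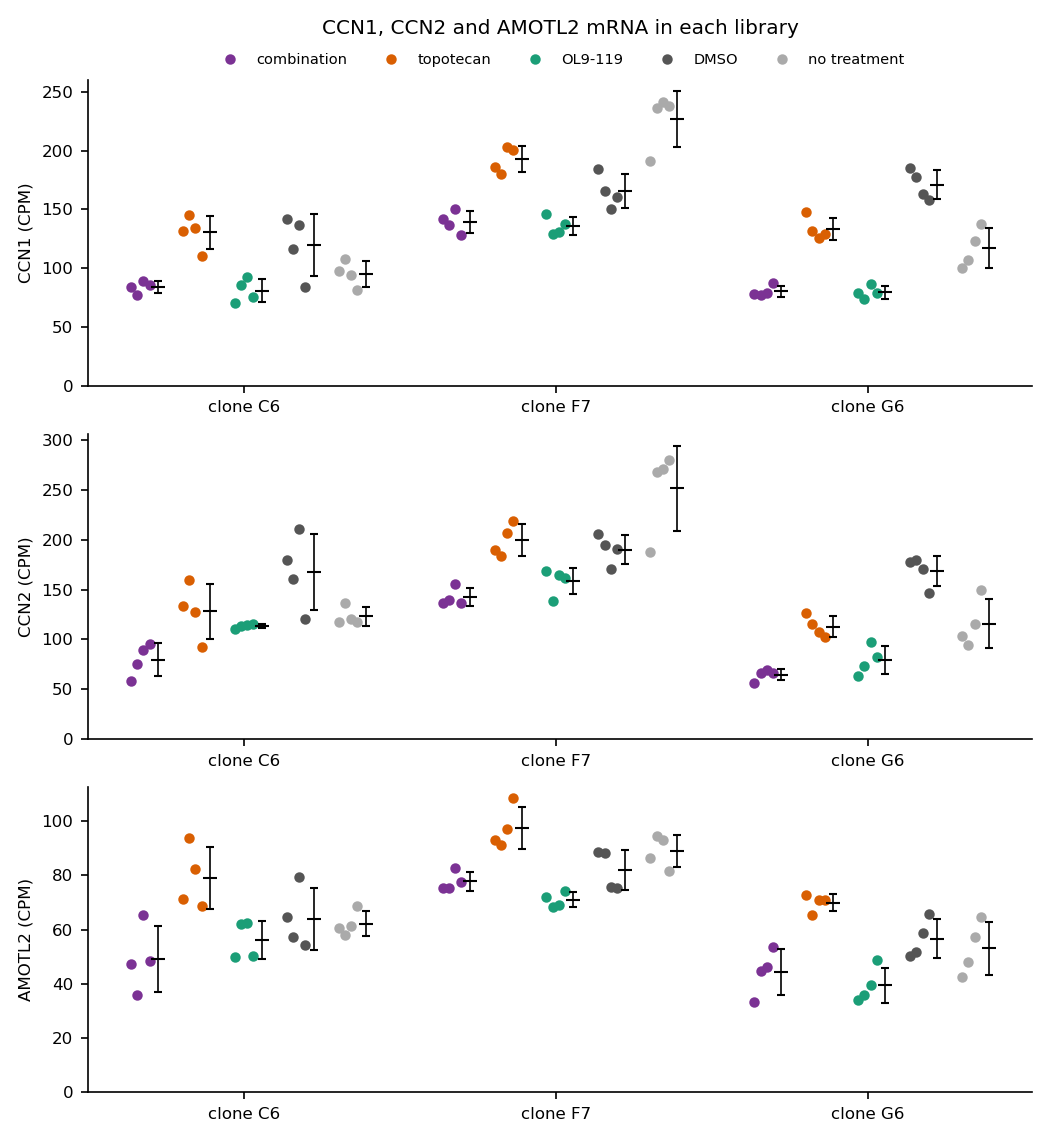
CPM of CCN1, CCN2 and AMOTL2 (vertical axes) in each of the 60 libraries, by clone and treatment; points are libraries and the black marks are means with SD of 4 libraries. Combination libraries of CCN1 (76.8 to 151 CPM) sit below the topotecan libraries of the same clone, and the F7 libraries without treatment (191 to 242 CPM) include the highest of all.

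By clone, CCN1 in the combination was lower by 0.63 ± 0.11 in C6, 0.47 ± 0.11 in F7 and 0.73 ± 0.11 in G6 on the log2 scale, with adjusted p of 0.000161, 0.0115 and 1.12e-05 in edgeR, and CCN2 was lower by 0.68 ± 0.14, 0.49 ± 0.14 and 0.80 ± 0.14 in the same clones. Within single clones 1.63% of genes passed in C6, 0.922% in F7 and 0.543% in G6. CCN2 in F7 did not pass (adjusted p = 0.0866 in edgeR, 0.0320 in DESeq2), nor did AMOTL2 in F7 (-0.33 ± 0.13, adjusted p = 0.426 in edgeR). A test of whether the response differed between clones called none of the 10 genes and 0% of all genes (0 of 18985, with 496 at an unadjusted p under 0.05, DESeq2 calling 1). Without the low-detection libraries CCN1 was lower by 0.61, CCN2 by 0.63 and AMOTL2 by 0.43, with adjusted p of 8.83e-08, 7.67e-06 and 0.000200 in edgeR. In C6 alone, where 1 combination library then remains and its spread is taken from the other groups, the changes were -0.65, -0.68 and -0.43 and did not pass.

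None of the other 3 targets passed. LATS2, the kinase that restrains YAP1 and is itself a target of it, had a log2 change of -0.30 ± 0.10 in the combination against topotecan (adjusted p = 0.0661 in edgeR). It passed in DESeq2 (-0.29, adjusted p = 0.0459) and, in edgeR, without the low-detection libraries (-0.35, adjusted p = 0.0181). It is the least abundant of the 10, with 5.08 to 15.1 CPM (median 11.3) in the combination and 6.37 to 19.5 CPM (median 16.6) in topotecan, and its smallest count in any library was 40. Its combination libraries lay below the topotecan ones in C6 and F7 and overlapped them in G6. AJUBA, a LIM protein that inhibits the LATS kinases, had a change of -0.17 ± 0.07 (adjusted p = 0.164). ANKRD1, an ankyrin-repeat cofactor and a standard reporter of YAP1 activity, had a change of -0.14 ± 0.06 (adjusted p = 0.174), with -0.10 ± 0.11 in C6, 0.115 ± 0.106 in F7 and -0.44 ± 0.11 in G6. In G6 its combination libraries (230.2 to 275.5 CPM) lay below its topotecan libraries (296 to 407 CPM, adjusted p = 0.0333 in edgeR), and in C6 and F7 they overlapped. With DESeq2's size factors in edgeR the G6 change had an adjusted p of 0.0519. The adjusted p for a difference of the ANKRD1 response between clones was 1, with an unadjusted p of 0.00238 in edgeR.

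None of the 4 factors passed in the combination against topotecan. The 95% interval of the log2 change ran from -0.00 to 0.23 for YAP1, from -0.25 to 0.09 for WWTR1, from -0.13 to 0.11 for TEAD1 and from -0.28 to 0.02 for TEAD4. YAP1 in F7 was above topotecan in every combination library (0.18 ± 0.10), a change that did not pass in edgeR. The median change of the 10 genes was -0.15, against -0.01 for all genes tested.

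OL9-119 given alone against DMSO is the comparison the choice of genes names, and its values describe that choice. CCN1 had 70.4 to 146 CPM (median 86.1) with OL9-119 and 83.5 to 185 CPM (median 159.6) with DMSO, a log2 change of -0.65 ± 0.06. CCN2 had 63.6 to 169 CPM (median 114) with OL9-119 and 120.1 to 211 CPM (median 178) with DMSO, a change of -0.64 ± 0.08. AMOTL2 changed by -0.30 ± 0.08, WWTR1 by -0.23 ± 0.08 and LATS2 by -0.21 ± 0.10, and ANKRD1 by 0.28 ± 0.06. AJUBA (-0.02), YAP1 (-0.02), TEAD1 (0.01) and TEAD4 (-0.01) were within 1 SE of 0. The median of the 10 genes was -0.11, against 0.01 for all genes tested.

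**Figure D2:**
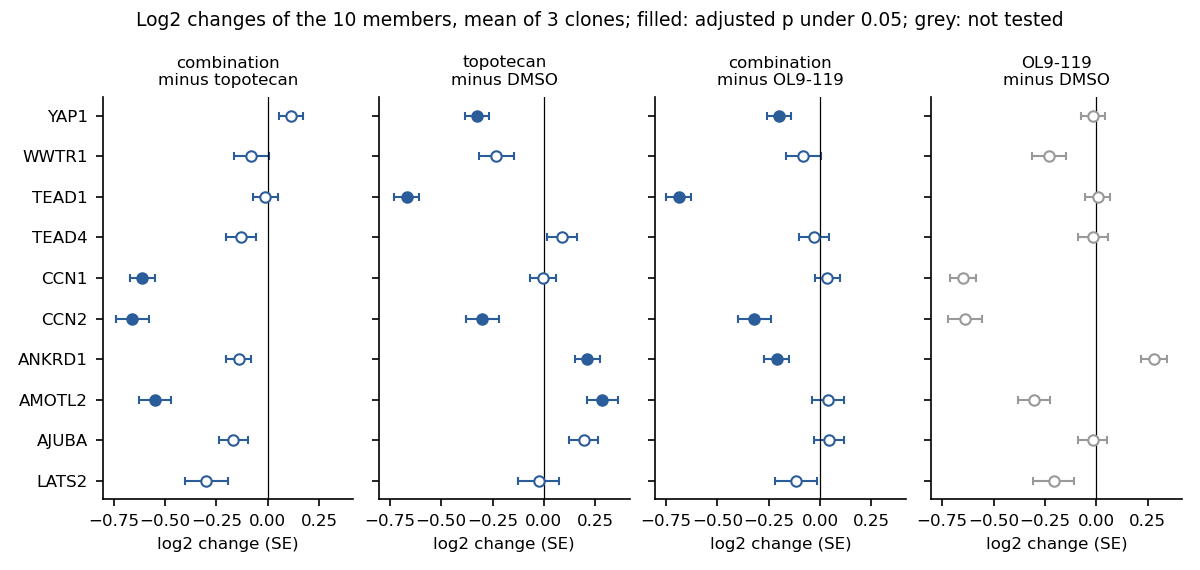
Log2 change (horizontal axes, ± SE) of the 10 genes in 4 comparisons averaged over the 3 clones; filled points passed an adjusted p of 0.05 and grey points were not tested. CCN1, CCN2 and AMOTL2 are to the left in both OL9-119 comparisons, and TEAD1 and YAP1 in both topotecan comparisons.

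With topotecan alone, TEAD1 and YAP1 were lower, and CCN1 did not pass when averaged over the clones. TEAD1, the DNA-binding partner of YAP1, was lower with topotecan than with DMSO by 0.67 ± 0.06 on the log2 scale (a fall of 37.1%, adjusted p = 4.79e-13 in edgeR), and YAP1 by 0.33 ± 0.06 (a fall of 20.3%, adjusted p = 2.00e-05). TEAD1 had 68.9 to 111 CPM (median 88.8) with topotecan and 113.4 to 168 CPM (median 142) with DMSO, so no topotecan library reached the lowest DMSO library of any clone. YAP1 had 92.8 to 116 CPM (median 99.8) with topotecan and 113 to 159 CPM (median 125.1) with DMSO, and these ranges overlapped when the clones were pooled. The 2 genes lay below DMSO in every topotecan library within each of the 3 clones, as did 2.20% of the genes tested. WWTR1 had -0.23 ± 0.08 (adjusted p = 0.0540 in edgeR) and passed in DESeq2 (adjusted p = 0.0471) and, in edgeR, without the low-detection libraries (-0.18, adjusted p = 0.0314). TEAD4 had 0.09 ± 0.07 (adjusted p = 0.508).

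Among the targets, CCN2 was lower with topotecan by 0.30 ± 0.08 (adjusted p = 0.00529), and AMOTL2 (0.29 ± 0.08, adjusted p = 0.00495) and ANKRD1 (0.21 ± 0.06, adjusted p = 0.0117) were higher. CCN1 had -0.00 ± 0.06 (95% interval -0.13 to 0.12) and LATS2 -0.03 ± 0.10. AJUBA had 0.19 ± 0.07 (adjusted p = 0.0592 in edgeR), and 0.22 (adjusted p = 0.00615) without the low-detection libraries. In all, 5 of the 10 genes passed, 2 higher and 3 lower, and 15.3% of all genes tested passed, with a median of -0.01 for the 10 genes and 0.02 for all. This comparison shares its DMSO libraries with OL9-119 minus DMSO. Against the untreated libraries CCN2 did not pass (-0.10, adjusted p = 0.489 in edgeR), and without the low-detection libraries it had -0.22 (adjusted p = 0.0534). The joint test of clones called none of the 10 genes for topotecan minus DMSO, and 0.137% of all genes. CCN1 by clone had 0.13 ± 0.11 in C6, 0.22 ± 0.11 in F7 and -0.36 ± 0.11 in G6. In G6 it passed (adjusted p = 0.0235 in edgeR) with every topotecan library below every DMSO library, while the test of a difference between clones did not pass (adjusted p = 0.237). CCN2 had -0.39 ± 0.14 in C6 (adjusted p = 0.1101), 0.07 ± 0.14 in F7 (adjusted p = 0.9995) and -0.58 ± 0.14 in G6 (adjusted p = 0.00323), so its fall passed in G6 alone, and the adjusted p for a difference between clones was 0.760. Within single clones 4.71% of all genes passed in C6, 1.94% in F7 and 8.72% in G6.

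CCN1 and CCN2, members of one protein family, differed in their response to topotecan. The ratio of CCN2 to CCN1 in CPM was 0.951 ± 0.104 with topotecan and 1.18 ± 0.19 with DMSO, and 0.924 ± 0.141 in the combination against 1.19 ± 0.22 with OL9-119 (SD, n = 12 each). The log2 ratio was lower with topotecan than with DMSO by 0.30 and lower in the combination than with OL9-119 by 0.36, in 3 of 3 clones each time. An exact permutation test within clones, 2-sided, gave p = 5.83e-06 for the first, the smallest that the 343000 arrangements allow, and p = 5.25e-05 for the second. This ratio test was not among the planned tests. The first comparison shares its DMSO libraries, and the second its OL9-119 libraries, with OL9-119 minus DMSO, which the choice of CCN1 and CCN2 names. These p-values are thus not independent of that choice. Between the combination and topotecan the log2 ratio differed by -0.05 (p = 0.447 by the same exact test). Adjusted over these 3 comparisons the values were 1.75e-05, 7.87e-05 and 0.447, and without the low-detection libraries they were 0.000204, 0.000357 and 0.745 in the same exact permutation test.

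Over all genes, the change with topotecan went with gene length. TEAD1 spans 269.9 kb from first to last annotated base, WWTR1 219 kb and YAP1 122.96 kb, whereas CCN1 and CCN2 span 3.20 kb each. Over protein-coding genes tested, the median log2 change with topotecan was 0.12 for genes under 10 kb (n = 2857), 0.09 for 10 to 30 kb, -0.01 for 30 to 100 kb, -0.16 for 100 to 200 kb (n = 1807) and -0.36 for genes over 200 kb (n = 1176). Within its span class TEAD1 stood at percentile 17.3, YAP1 at 17.5 and WWTR1 at 68.0. CCN2, at -0.30, stood at percentile 4.38 of genes under 10 kb, and AMOTL2 at 85.6 of genes of 10 to 30 kb. The part of span in the change of any single gene was not tested.

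**Figure D3:**
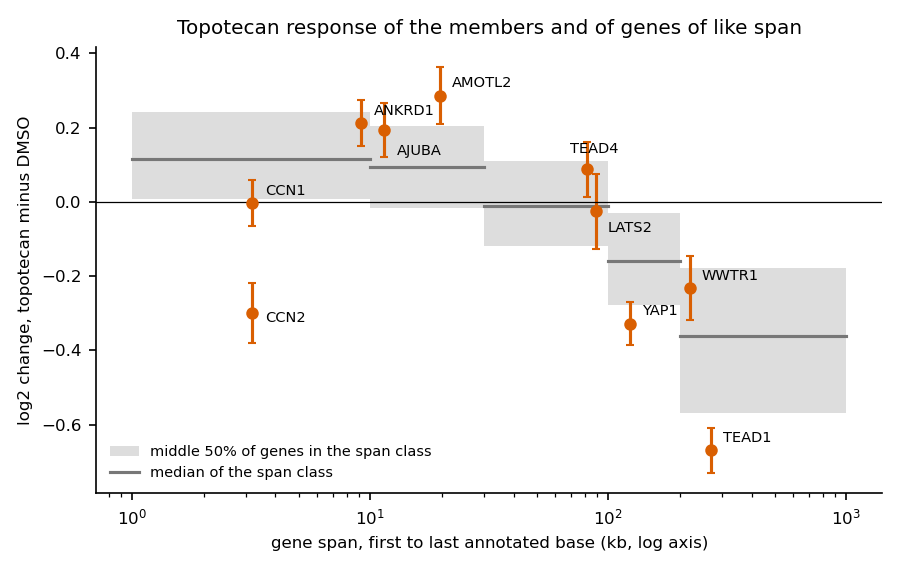
Log2 change with topotecan minus DMSO (vertical axis, ± SE) against gene span in kb (log axis) for the 10 genes, with the median and the middle 50% of all protein-coding genes tested in each of 5 span classes, the outer classes being drawn to fixed limits. TEAD1 (-0.67) and YAP1 (-0.33) lie below the band of their classes, and CCN2 (-0.30) lies below that of genes under 10 kb.

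The combination was also set against OL9-119 alone, whose libraries are part of the comparison the choice names. TEAD1 was lower in the combination than with OL9-119 by 0.69 ± 0.06 (adjusted p = 2.43e-13 in edgeR), CCN2 by 0.32 ± 0.08 (adjusted p = 0.00372), ANKRD1 by 0.21 ± 0.06 (adjusted p = 0.0144) and YAP1 by 0.20 ± 0.06 (adjusted p = 0.0143). These 4 genes of the 10 passed, against 12.7% of all genes tested. With no low-count filter YAP1 had an adjusted p of 0.0623, and with only the groups compared ANKRD1 had 0.0594, in edgeR. Without the low-detection libraries the count was 2, since CCN2 (-0.27, adjusted p = 0.0579) and ANKRD1 (-0.07, adjusted p = 0.6001) did not pass. CCN1 (0.04 ± 0.06) and AMOTL2 (0.04 ± 0.08) had intervals from -0.09 to 0.16 and from -0.12 to 0.19. Set beside DMSO with no test, the combination had CCN2 at -0.96, TEAD1 at -0.68, CCN1 at -0.61, LATS2 at -0.32, WWTR1 at -0.31, AMOTL2 at -0.26 and YAP1 at -0.21. Without the low-detection libraries AMOTL2 was at -0.12 there and YAP1 at -0.30. CCN2 had 56.3 to 155 CPM (median 82.2) in the combination, 92.6 to 218 CPM (median 130.4) with topotecan, 63.6 to 169 CPM (median 114) with OL9-119, and 120.1 to 211 CPM (median 178) with DMSO.

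The 3 clones differed in these genes without any drug, and the widest differences were those of ANKRD1. Over the 8 drug-free libraries of each clone, ANKRD1 had 63.2 to 87.4 CPM (median 71.65) in C6, 506 to 856 CPM (median 639) in F7 and 256 to 368 CPM (median 292.5) in G6, and no clone overlapped another. On the log2 scale ANKRD1 was lower in C6 than in F7 by 3.13 ± 0.08 (adjusted p = 2.13e-37 in edgeR) and lower in C6 than in G6 by 2.06 ± 0.08, and it was higher in F7 than in G6 by 1.07 ± 0.08. The next widest difference was that of LATS2, which had 15.6 to 18.9 CPM (median 17.7) in F7 and 6.94 to 15.7 CPM (median 8.66) in G6, a difference of 0.93 ± 0.13 (adjusted p = 3.02e-08), with 1 value of G6 just above the lowest of F7.

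CCN1 had 81.2 to 142 CPM in C6, 150.2 to 242 CPM in F7 and 100.1 to 185 CPM in G6 without drug, so that C6 lay wholly below F7 and G6 overlapped both. Of the 10 genes, 8 were higher in F7 than in G6 (31.5% of all genes tested differed), and none was lower. YAP1 (-0.16 ± 0.07) and WWTR1 (-0.25 ± 0.10) were the other 2 and did not pass. Without the low-detection libraries YAP1 passed as lower in F7 (-0.18, adjusted p = 0.00919 in edgeR). Of the 10 genes 9 then passed, and 7577 of all genes. Between C6 and F7, 6 genes differed (50.3% of all genes), CCN1 (-0.86), CCN2 (-0.61), ANKRD1, AMOTL2 (-0.44) and TEAD1 (-0.32) lower in C6 and WWTR1 (0.30) higher. Between C6 and G6, 4 differed (37.3% of all genes), CCN1 (-0.41), ANKRD1 and YAP1 (-0.21) lower in C6 and LATS2 (0.67) higher. With so many genes of all kinds differing between clones, a count of 4 or 6 among 10 is near the share of all genes. The median of the 10 genes for F7 minus G6 was 0.38, against 0.01 for all genes. With DMSO libraries alone, 4 of the 10 passed for C6 minus F7 (39.5% of all genes), 2 for C6 minus G6 (24.4%) and 3 for F7 minus G6 (17.1%). CCN2 in C6 minus F7 then had -0.18 and did not pass (adjusted p = 0.317 in edgeR), and CCN1 had -0.47 (adjusted p = 0.000371). Without the low-detection libraries WWTR1 in C6 minus F7 had 0.13 and did not pass (adjusted p = 0.134 in edgeR). AJUBA (-0.17, adjusted p = 0.0409) and YAP1 (-0.14, adjusted p = 0.0495 in edgeR) then passed as lower in C6. With DMSO alone, CCN1 in F7 minus G6 was -0.05, on the other side of 0 from the 0.45 ± 0.08 of both groups together.

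**Figure D4:**
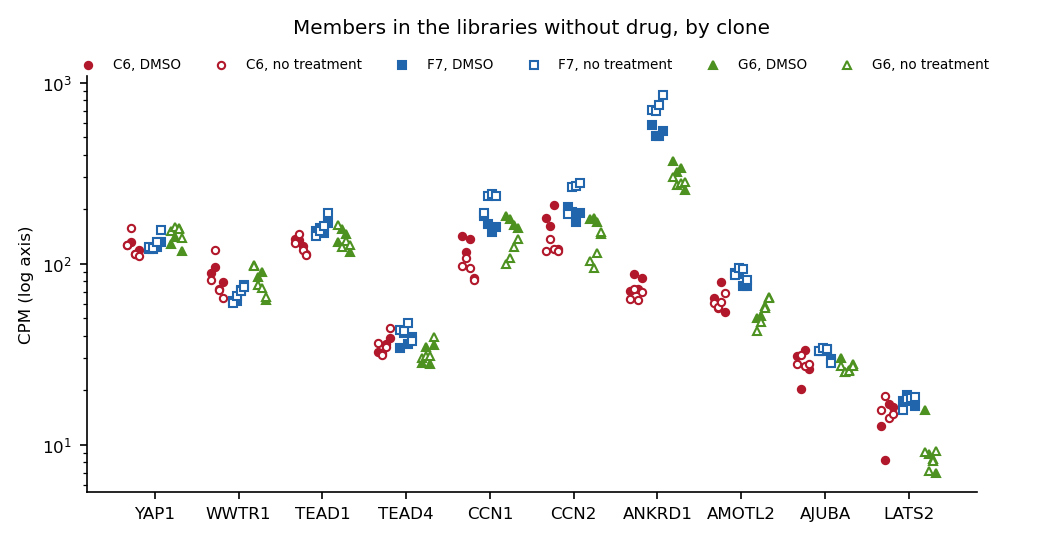
CPM (log axis) of the 10 genes in the 24 libraries without drug, by clone, with filled marks for DMSO and open marks for no treatment. ANKRD1 separates the clones, at 63.2 to 87.4 CPM in C6, 506 to 856 CPM in F7 and 256 to 368 CPM in G6.

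Mean CCN1 with DMSO stood higher than without treatment in C6 and G6 and lower in F7, and the difference within a clone passed in G6 alone. CCN1 had 83.5 to 142 CPM with DMSO and 81.2 to 107 CPM untreated in C6, 150.2 to 185 CPM with DMSO and 191 to 242 CPM untreated in F7, and 158 to 185 CPM with DMSO and 100.1 to 138 CPM untreated in G6. DMSO libraries were below all untreated ones in F7, above all of them in G6, and overlapped them in C6. Within single clones the adjusted p of CCN1 in edgeR was 0.517 in C6, 0.779 in F7 and 0.0244 in G6. Of the 18985 genes tested, 0 passed in C6, 0 in F7 and 6 in G6. A joint test of the 2 differences between clones, added after seeing the data, gave an adjusted p of 0.000596 for CCN1 in edgeR, the sole gene of 18985 to pass (0.00527%), while CCN2 and ANKRD1 each had 0.0900. In a model of only the groups compared CCN1 had 0.270, and it did not pass without F7 replicate 3 (0.138) or F7 replicate 4 (0.0726). Averaged over clones, DMSO minus no treatment called none of the 10 genes in edgeR and 0.0158% of all genes. CCN1 had 0.14 ± 0.06 (adjusted p = 0.942) and CCN2 0.20 ± 0.08 (adjusted p = 0.887). These 2 of the 10 genes had an unadjusted p under 0.05, as did 953 of the 18985 genes tested. The DMSO libraries are part of the comparison that the choice of CCN1 and CCN2 names, so these values are not independent of that choice.

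The order of the clones in the OL9-119 change was not the same against DMSO as against no treatment. With DMSO as the reference, CCN1 changed by -0.56 ± 0.11 in C6, -0.28 ± 0.11 in F7 and -1.11 ± 0.11 in G6. With untreated libraries as the reference, CCN1 changed by -0.23 ± 0.11 in C6, -0.74 ± 0.11 in F7 and -0.56 ± 0.11 in G6. In the combination against topotecan, which uses neither drug-free group, CCN1 was lower in all 3 clones, by 0.47 to 0.73. CCN2 had -0.56, -0.26 and -1.09 in C6, F7 and G6 against DMSO and -0.11, -0.67 and -0.55 against no treatment. ANKRD1 changed with OL9-119 by 0.26 ± 0.11, 0.58 ± 0.11 and 0.00 ± 0.11 against DMSO and by 0.49 ± 0.11, 0.08 ± 0.11 and 0.18 ± 0.11 against no treatment.

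**Figure D5:**
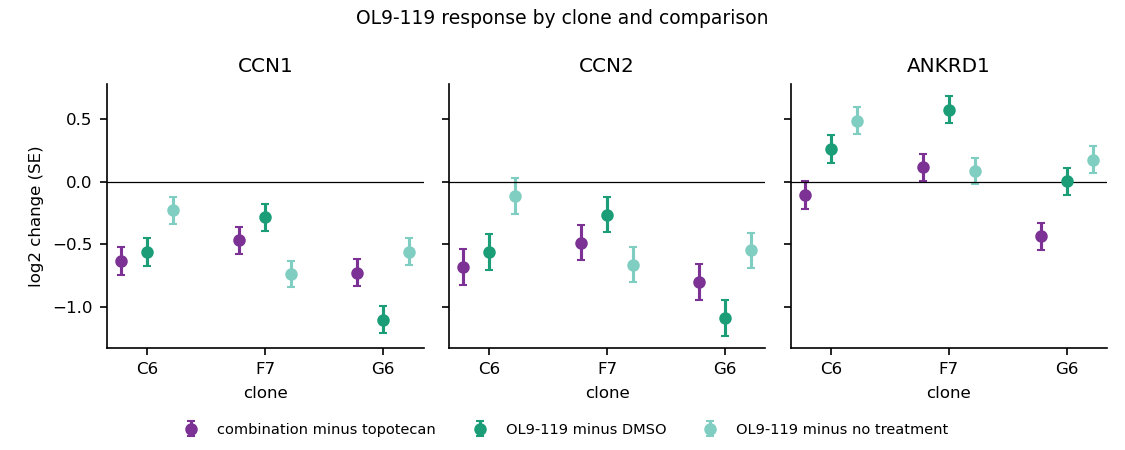
Log2 change (vertical axis, ± SE) of CCN1, CCN2 and ANKRD1 in each clone, for the combination minus topotecan, OL9-119 minus DMSO and OL9-119 minus no treatment. CCN1 in F7 is at -0.47, -0.28 and -0.74 and in G6 at -0.73, -1.11 and -0.56 in that order.

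Of 17 further YAP/TAZ-TEAD targets, all tested, 1 was higher and none lower in the combination against topotecan, where 6.78% of all genes passed, with a median of -0.05 and a range from -0.25 to 0.22. The one that passed was GADD45A, a growth-arrest gene that p53 also induces (0.16 ± 0.05, adjusted p = 0.0236 in edgeR). With topotecan against DMSO, where 15.3% of all genes passed, 3 were higher and 6 lower (median 0.03), GADD45A (0.74 ± 0.05), ASAP1 (-0.80 ± 0.08), CRIM1 (-0.52 ± 0.06) and DOCK5 (-0.39 ± 0.08) having the smallest p. ASAP1 is a regulator of Arf GTPases and DOCK5 an activator of Rac.

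The actin cytoskeleton and SRF-MRTF list was looked at because SRF with MRTF is also known to drive CCN1 and CCN2. The CArG motif that SRF binds was found in none of the 7 promoter windows, CCN2 included, and in 1.16% of all RefSeq windows. With a motif this rare, none in 7 windows is the usual outcome, so its absence carries no information on SRF. CCN1 had no window, and whether SRF acts on these genes was not tested. In the combination against topotecan 7 of 18 were lower and none higher, with a median of -0.21 against -0.01 for all genes and 6.78% of all genes passing. VCL, which encodes the adhesion protein vinculin, had -0.25 ± 0.03, the actins ACTB -0.48 ± 0.06 and ACTG1 -0.47 ± 0.08, and the tropomyosin TPM1 -0.21 ± 0.04 (adjusted p of 5.25e-08, 7.39e-08, 1.40e-05 and 0.000401 in edgeR). With topotecan against DMSO 4 of the 18 were lower and none higher (median -0.06, with 15.3% of all genes passing), VCL (-0.27), MRTFB (-0.40), CALD1 (-0.19) and CAPZA1 (-0.16). The lists were drawn up with results of these data known, and no test of a list as a whole was made.

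Among 22 Hippo kinases and upstream regulators, 1 was higher and none lower in the combination against topotecan (median 0.02, with 6.78% of all genes passing), WWC3 (0.33 ± 0.08, adjusted p = 0.00406 in edgeR), a relative of the scaffold KIBRA. With topotecan against DMSO, where 15.3% of all genes passed, 11 were lower and 1 higher (median -0.16), and those with the smallest p were the kinase MAP4K4 (-0.39 ± 0.04), WWC2 (-0.55 ± 0.07), SLMAP (-0.51 ± 0.08) and the MST2 kinase gene STK3 (-0.65 ± 0.10). Of the other TEAD and VGLL cofactors, 5 of 6 were tested, and none passed with the combination and 1, VGLL4 (-0.21 ± 0.06), a repressor that competes with YAP1 for TEAD, with topotecan. VGLL1 was at 0 in 56 libraries. Of the other CCN genes only CCN3 was tested (5.78 to 14.2 CPM), and it passed in neither comparison.

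Within groups, some of the 10 genes varied together and with the number of genes detected. As a description over the 60 libraries, deviations from the group means had a Pearson r of 0.75 between CCN1 and CCN2, 0.51 between CCN1 and AMOTL2, 0.74 between YAP1 and TEAD1 and -0.74 between AMOTL2 and WWTR1 (Spearman 0.78, 0.53, 0.76 and -0.73). The libraries share depth and scaling between genes. The deviation in the number of genes detected at a common depth had an r of -0.86 with WWTR1, -0.70 with TEAD1, -0.64 with YAP1 and 0.76 with AMOTL2, and of 0.13 with CCN1 and 0.19 with CCN2. The part of detection in the changes of the first 4 genes was not tested beyond leaving out the 14 libraries, after which TEAD1 and YAP1 with topotecan were at -0.69 and -0.32 and AMOTL2 in the combination against topotecan at -0.43.

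Over the 15 group means of log2 CPM, the genes most like CCN1 among 12331 with a mean of at least 2 included SLC25A44 (r = 0.93), TMEM14B (0.92), MRPL48 (0.92) and CHORDC1 (0.91), and CCN2 ranked 12th (0.90). Those most like CCN2 were LIN28B (0.92), CDC123 (0.91), MORN2 (0.90), INTS2 (0.90) and CCN1 (0.90). AMOTL2 ranked 65th for CCN1 and 35th for CCN2, and ANKRD1 ranked 795th and 1877th. These correlations describe 15 means that share their libraries and carry no p. SLC25A44 changed by -0.26 and LIN28B by -0.21 in the combination against topotecan, less than CCN1 and CCN2 themselves.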

How the data were processed

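RNA-seq counts of 60 libraries from TDP1-knockout HEK293A clones were used. The authors deposited a table of raw read counts per gene, not normalized. Per the labels' protocols, poly(A) RNA was made into directional MGI libraries. FastQC 0.11.9, STAR 2.7.8, Picard 2.26.6 and build hg38 are named in the submitters' processing notes, while nothing read for this work names the counting program or whether it used strand, so reads of overlapping genes cannot be told apart. Gene spans and exon lengths came from GENCODE 29. Genes overlapping a member averaged at most 0.598 CPM.

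Counts were tested in R 4.3.3 with edgeR 4.0.16 (TMM scaling, filterByExpr, 1 mean for each of 15 groups, quasi-likelihood F test, 2-sided, Benjamini-Hochberg adjustment over 18985 genes, threshold 0.05), which had 45 residual degrees of freedom. DESeq2 1.42.0 was an alternative. CPM used effective library sizes, and log2 CPM a prior count of 2. Totals of 4.62 to 20.9 M counts limit the precision of genes with low counts such as LATS2. The labels call replicates biological without saying whether cultures were separate, so p-values measure the spread between these libraries. Replicate numbers were not treated as pairs.

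The members and gene lists were chosen with earlier results of these data known, and for OL9-119 minus DMSO, the comparison of that choice, no test is reported, a planned test of clone differences included. Besides the members, up to 4 genes per list with the smallest p past the threshold and the 5 genes most like CCN1 and CCN2 are named, except 1 that is not reported here. The test was run on counts simulated for the combination and topotecan libraries, with 1 mean per gene apart from genes changed on purpose. Those counts held no differences between clones and no likeness of libraries with the same number, so the run does not check the p-values for these. Promoter windows came from RefSeq (GRCh38.p14).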

Additional observations from a re-analysis of the deposited data

Results flagged for a closer look

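In 9 of 150 sets of 4 replicates, 1 library stood apart from the other 3 by more than Dixon's 95% limit for the gap over the range, and chance alone gives about 1 in 20 such sets. CCN1 had 191.3 CPM in 1 untreated F7 library, against 236.5 to 241.8 CPM in the other 3, and CCN2 in the same group had 187.6 CPM, against 267.5 to 279.9 CPM. LATS2 in untreated F7 had 15.64 CPM in 1 library, against 17.99 to 18.47 CPM. CCN2 in untreated C6 had 136.8 CPM in 1 library, above 117.2 to 120.4 CPM. ANKRD1 in F7 with OL9-119 had 919.9 CPM in 1 library, above 741.6 to 764.2 CPM. AJUBA had 29.68 CPM in 1 F7 library with DMSO, against 33.0 to 33.5 CPM, and 17.57 CPM in 1 G6 library with OL9-119, against 26.7 to 27.7 CPM. TEAD4 had 30.45 CPM in 1 G6 library with topotecan, against 37.05 to 37.73 CPM, and 39.27 CPM in 1 untreated G6 library, above 30.2 to 30.9 CPM.

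CCN1 in DMSO minus no treatment had log2 changes of 0.33 ± 0.11 in C6, -0.46 ± 0.11 in F7 and 0.54 ± 0.11 in G6. Within single clones only the change in G6 passed (adjusted p = 0.0244 in edgeR, against 0.517 in C6 and 0.779 in F7). The 3 changes differed between the clones in the joint edgeR test, which was added after seeing the data (adjusted p = 0.000596). With only the groups compared the adjusted p was 0.270, and it was 0.138 without F7 replicate 3 and 0.0726 without F7 replicate 4.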

How the results depend on the processing

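Over 22 other settings, 12 of which left out a replicate number of a clone, 2602 of 2726 values of the 10 genes were counted as unchanged. A tested value counted so if it stayed on its side of the threshold. A change of sign was looked at only where either value passed, so values that passed in neither setting could change sign. Values with no test counted so if they moved by less than the SD between replicates. CCN1 (-0.64 to -0.58), CCN2 (-0.73 to -0.61) and AMOTL2 (-0.60 to -0.43) passed in the combination against topotecan under every setting run, as did TEAD1 (-0.70 to -0.64), YAP1, AMOTL2 and ANKRD1 with topotecan against DMSO. The cause of the other changes was not tested.

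Genes called in the combination against topotecan numbered 1287 in the main model and 2455 with the replicate block. They numbered 827 to 1488 when replicates were left out, 827 without F7 replicate 2. Within a clone, libraries of the same number correlated above 0.1 in their deviations from the group means in 46 of 120 pairs (median 0.0425), against 36 of 360 pairs of different numbers (median -0.00987). Of the 60 libraries, 35 correlated best with their own number, out of 4 numbers per clone. Libraries of the same clone and number also share the prefix of their library names, whose meaning the labels do not give. The labels name no shared day or batch, so pairing by number was not taken as the design. Not every pair was above 0.1, a limit that a paired design need not meet in each pair. The main model thus leaves out what libraries of the same number share. Besides calls gained, the block ended no call of the 10 genes. In the combination against OL9-119, 2 of the 10 genes passed without the low-detection libraries, and 2 to 4 when replicates were left out. DMSO minus no treatment called 16 genes in DESeq2, 13 with no filter, 11 with the replicate block, 0 with only the groups compared, 0 without the low-detection libraries, and 0 to 21 when replicates were left out.

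Clone dependence called, for the combination against topotecan, 1 gene in DESeq2, 5 with no filter and 1 with the block. For topotecan against DMSO it called 47 in DESeq2, 52 without the low-detection libraries and 16 to 33 when replicates were left out. For DMSO minus no treatment it called 3 genes in DESeq2 (3 of the 10), 10 with no filter (3), 0 with only the groups compared (0), 3 with the block (3), 2 without the low-detection libraries (2), and 0 to 3 genes (0 to 3) when replicates were left out.

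Between clones without drug, C6 minus F7 called 6201 genes with no treatment only. C6 minus G6 called 4635 genes with DMSO only (2 of the 10) and 4259 with no treatment only, and F7 minus G6 called 3241 with DMSO only (3 of the 10) and 3170 with no treatment only, each from fewer libraries. CCN1 in F7 minus G6 turned to -0.0466 with DMSO only. Refits leaving out single libraries were not run. Low counts limit LATS2, whose call in the combination differed between tools.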
